A study of Mus musculus with 30 samples.

Results

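RNA polymerase II carrying a phosphate on serine 5 of the tail of its largest subunit, Pol II Ser5P, was compared between microglia that had lost Mir137 (cKO) and microglia with intact Mir137 (cWT). The members were all regions of the deposited cKO-specific and cWT-specific Ser5P lists, 6163 and 127 regions, together 6290 of the 22399 regions listed for 5 antibodies. Each genotype had 3 Ser5P replicates among the 30 samples of the series. The series addressed how miR-137 acts on transcription in adult microglia, the resident macrophages of the brain. The assay was CUT&Tag per the labels' protocol, which uses an antibody to bring a transposase to the DNA beside the antibody's target, although the series names it ChIP-seq.

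All mice were C57BL/6J at 8 weeks of age. The cWT mice were Mir137+/+;Tmem119-CreERT2 and the cKO mice were Mir137loxP/loxP;Tmem119-CreERT2, so both genotypes carried the tamoxifen-inducible Cre driven from Tmem119, a microglial marker gene. Both received tamoxifen on 7 consecutive days, starting at 7 to 8 weeks. About 100000 sorted microglia were used per genotype. The series text mentions 4 mice and 3 replicates for a genotype, and nothing in the labels ties a replicate to a mouse, so replicates may not be separate animals. The protocol prints 1 shared catalogue number for the Ser5P, total Pol II and H3K27ac antibodies, so the target of the Ser5P libraries rests on the sample titles. The lists hold 1 value per region and none per replicate, so no difference below could be set against the spread between replicates. Read depth is unknown, and the 95% intervals (exact Clopper-Pearson) cover the counting of regions only.

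The largest subunit of RNA polymerase II ends in a tail of repeated heptads. CDK7, the kinase of the initiation factor TFIIH, phosphorylates serine 5 of the heptad as the enzyme leaves the promoter, and the mark recruits the enzymes that cap the new RNA. Ser5P is highest around gene starts, where polymerase pauses until CDK9, the kinase of P-TEFb, releases it into elongation. It is also found at active enhancers, which are transcribed at a low level.

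The deleted microRNA is shown first, with 5 promoters that lay under a listed region, 3 in the cKO and 2 in the cWT list. The mature miR-137 strand from the 3′ arm (RefSeq, GRCm38.p6, chr3:118433901-118433923, plus strand) is printed with its seed, bases 2 to 8, in capitals. The promoter windows run from 250 bases before to 50 bases after the start site, on the same build. Cdk7 (chr13:100730893-100731192, minus strand), Cdk9 (chr2:32712735-32713034, minus strand) and Tnf (chr17:35201958-35202257, minus strand), which encodes the cytokine TNF, were overlapped by a cKO region. Jun (chr4:95052173-95052472, minus strand), an AP-1 subunit, and Klf6 (chr13:5861239-5861538, plus strand), a zinc-finger factor, were overlapped by a cWT region. Capitals in the promoters mark matches on either strand to GGGCGG (the GC box), TATAAA (the TATA box), CCAAT (bound by NF-Y), GGAAGT (the ETS core), TGANTCA (AP-1), TGACGTCA (CRE), GGANNTTCC (an NF-kB core) and CACGTG (E-box), and 1 base can belong to more than 1 match.
miR-137-3p: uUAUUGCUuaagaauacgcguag
Cdk7: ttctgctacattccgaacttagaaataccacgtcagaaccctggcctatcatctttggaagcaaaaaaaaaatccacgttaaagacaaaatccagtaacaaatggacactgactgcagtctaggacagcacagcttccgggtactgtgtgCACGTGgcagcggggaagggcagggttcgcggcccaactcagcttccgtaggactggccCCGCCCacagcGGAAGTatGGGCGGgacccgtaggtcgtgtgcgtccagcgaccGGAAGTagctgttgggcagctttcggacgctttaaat
Cdk9: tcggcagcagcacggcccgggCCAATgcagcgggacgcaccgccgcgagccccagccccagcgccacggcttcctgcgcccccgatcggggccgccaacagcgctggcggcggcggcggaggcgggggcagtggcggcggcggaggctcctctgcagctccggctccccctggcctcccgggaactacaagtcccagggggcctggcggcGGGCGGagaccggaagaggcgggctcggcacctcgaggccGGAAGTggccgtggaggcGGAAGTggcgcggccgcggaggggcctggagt
Tnf: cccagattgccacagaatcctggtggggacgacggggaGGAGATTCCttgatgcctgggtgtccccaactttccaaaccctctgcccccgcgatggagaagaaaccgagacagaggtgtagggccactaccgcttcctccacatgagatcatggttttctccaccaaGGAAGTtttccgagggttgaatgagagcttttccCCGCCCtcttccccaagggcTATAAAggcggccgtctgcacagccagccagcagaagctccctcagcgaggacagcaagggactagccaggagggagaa
Jun: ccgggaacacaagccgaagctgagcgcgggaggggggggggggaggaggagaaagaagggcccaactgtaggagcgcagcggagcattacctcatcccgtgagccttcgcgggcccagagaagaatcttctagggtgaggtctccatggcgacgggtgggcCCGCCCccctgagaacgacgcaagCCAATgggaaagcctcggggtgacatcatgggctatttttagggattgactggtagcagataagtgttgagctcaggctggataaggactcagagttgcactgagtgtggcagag
Klf6: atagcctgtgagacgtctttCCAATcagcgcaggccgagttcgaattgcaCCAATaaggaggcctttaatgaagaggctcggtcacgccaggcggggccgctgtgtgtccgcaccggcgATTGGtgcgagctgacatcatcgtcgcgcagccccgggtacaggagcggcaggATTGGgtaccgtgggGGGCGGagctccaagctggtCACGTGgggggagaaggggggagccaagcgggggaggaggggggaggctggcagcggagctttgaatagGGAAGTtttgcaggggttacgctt

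The Tnf window held TATAAA at position -29 from its start, the only TATAAA match among the 5 windows printed. The Cdk9 window had a GC content of 78.3% and 39 CpG dinucleotides, against 58.0% and 11 in the Tnf window. The Jun window had 60.0% and 15, and the Klf6 window 63.0% and 23. Both a GC-rich window without TATAAA and a TATAAA window therefore lay under cKO regions. A match is a description of the letters and no evidence that a factor bound there.

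Ser5P regions specific to cKO microglia outnumbered those specific to cWT microglia, 6163 against 127, a cKO share of 98.0% (97.6 to 98.3%). Among the other antibodies of the series the cKO share was 95.9% (94.5 to 97.0%) for Pu.1 and 92.2% (91.4 to 92.9%) for Pol II. It was 61.5% for H3K4me3 and 10.8% for H3K27ac, which was mostly cWT, as the plot of listed and numbered regions shows. A mostly cKO list was thus shared by Ser5P, Pu.1 and Pol II. Region names carry numbers that follow genome order, which gives the least number of regions that existed before selection. For Ser5P these were 9393 in cKO and 3549 in cWT, so 65.6% of the numbered cKO regions and 3.58% of the numbered cWT regions were listed as specific. The numbered regions that were not listed came to 3230 in cKO and 3422 in cWT. These are minimum counts, regions found in both genotypes enter both, and the unlisted counts were also close for the other antibodies, for example 416 and 423 for Pu.1.

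**Figure D1:**
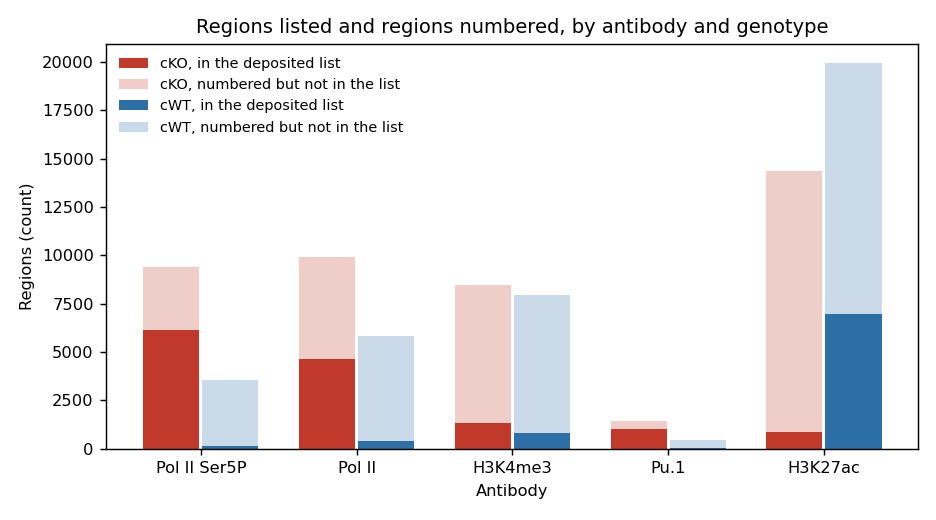
Number of regions (vertical axis) for each antibody and genotype. Solid bars are regions in the deposited genotype-specific lists and pale bars are regions numbered but not listed; for Pol II Ser5P the pale bars are 3230 for cKO and 3422 for cWT, while the solid bars are 6163 and 127.

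Most listed regions had weak deposited statistics. The deposited p-value, for which no test is named in the labels, had a median of 0.724 in the cKO list and 0.834 in the cWT list. It was under 0.05 for 78 cKO and 9 cWT regions, and the deposited adjusted p was under 0.05 for 1 region in each list. Among the regions with p under 0.05 the cKO share was 89.7% (81.3 to 95.2%). Depth and the number of reads behind each genotype are unknown, and their part in the counts was not tested.

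The cKO regions were wider and had a heavier upper tail than the cWT regions. Their median width was 369 bp, with the middle of the list between 298 and 498 bp and the widest at 2166 bp. The cWT regions had a median of 307 bp, quartiles of 280.5 and 375.5 bp and a maximum of 1004 bp. The deposited signal per region, on a scale that is not given, had a median of 11.0 in the cKO list and 9.88 in the cWT list, and was not compared between them. Some listed regions were touching pieces of 1 site: 180 cKO regions began at the base after the preceding one. Joining regions within 1 kb left 5837 cKO loci, of which 316 held at least 2 regions, and all 127 cWT loci.

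Gene starts held the largest share of both lists. Of the cKO regions, 54.6% (53.3 to 55.8%) came within 2 kb of a protein-coding start site, 25.3% lay inside a coding gene away from starts and 20.1% lay outside both. The cWT shares were 49.6% (40.6 to 58.6%), 27.6% and 22.8%, with overlapping intervals. Start sites came from RefSeq promoter entries for 17492 coding genes. Either end stood in for the start of the other 4395, which also counts some 3′ ends. With start sites from promoter entries alone the shares were 45.2% and 43.3%.

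Midpoints clustered just downstream of the start in both lists. Within 500 bp of the nearest start lay 38.4% of cKO and 30.7% of cWT regions. Of those within 2 kb, 64.7% (62.8 to 66.4%) of cKO and 71.2% (56.9 to 82.9%) of cWT midpoints were downstream. Among the lists of the other antibodies, the start share of the cKO list was 79.4% for H3K4me3, 51.9% for Pol II, 34.7% for H3K27ac and 31.0% for Pu.1. Ser5P thus stood next to total Pol II in its share at starts.

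**Figure D2:**
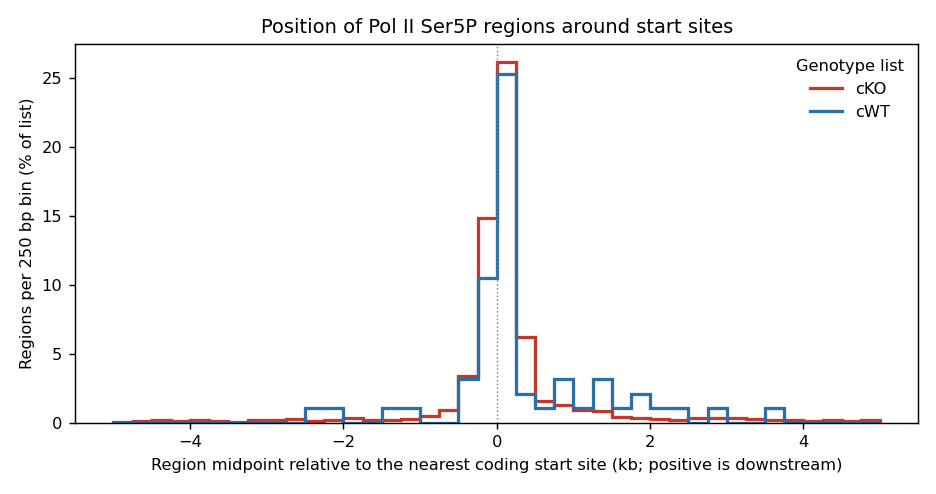
Share of each Ser5P list (vertical axis, % per 250 bp bin, of regions whose nearest site within 100 kb is a start site) against the distance of the region midpoint from that start (kb, positive downstream), for the cKO list in red and the cWT list in blue. Both lists peak in the 250 bp after the start.

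Position followed the strength of the deposited statistic within the cKO list. Ranked by p and cut into 4 equal sets, the share at starts was 66.5% in the set with the lowest p, then 57.9%, 52.3% and 41.8%. The median width went from 443 bp in the first set to 346 bp in the last, and the median distance to a start from 269 bp to 5613.5 bp. Regions named primary, which have the lowest p of their list, were at starts in 68.2% of 444 cKO cases (63.7 to 72.6%) and in 5 of 16 cWT cases (31.3%, 11.0 to 58.7%). With p under 0.05, 56 of 78 cKO regions and 3 of 9 cWT regions were at starts. The cKO regions of lowest p were thus mostly at gene starts. Among regions named primary the cWT share was lower, on 16 regions, some of them assigned to Mid1 on chromosome X and Gm52481 on chromosome Y. The median deposited signal of the 4 cKO sets fell in the same order, from 14.1 to 11.9, 9.97 and 7.47. Of the 5 cKO regions of highest signal, only that at Peg10 was at a start or gene end. The share at starts by rank of signal was not examined.

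The promoter windows under cKO regions were GC-rich. Of 21263 windows of coding genes, 2543 (12%) were overlapped by a cKO region and 48 (0.226%) by a cWT region, and 11 by both. The median number of CpG dinucleotides in the 300 bp was 24 under cKO regions and 23.5 under cWT regions. It was 22 in the 2486 windows overlapped only by another antibody's region, and 8 in the 16197 windows with no listed region. GGGCGG occurred in 73.7% of the windows under cKO regions, in 67.7% of those with another antibody only, in 38.5% of those with none and in 46.2% of all. TATAAA was scarcer, at 4.72%, 6.11%, 14.8% and 12.6% in the same order.

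Of the other motifs, GGAAGT, TGACGTCA and CACGTG were more frequent and TGANTCA less frequent under cKO regions than in windows with no listed region. GGAAGT, the core bound by ETS factors such as Pu.1, occurred in 32.9% of windows under cKO regions, 32.9% of those with another antibody only and 22.2% of those with no listed region. TGANTCA, bound by AP-1, occurred in 3.78%, 4.18% and 7.92%. TGACGTCA, the CRE, occurred in 4.25%, 3.74% and 1.69%, and CACGTG, the E-box, in 11.4%, 10.5% and 6.87%. GGANNTTCC occurred in 4.99%, 4.63% and 4.22%, and CCAAT in 39.7%, 40.2% and 37.6%, with no clear split. For GGGCGG the interval under cKO regions (71.9 to 75.4%) lay above that with another antibody only (65.9 to 69.6%). For the other motifs the 2 intervals overlapped. In the 48 windows under cWT regions, GGGCGG occurred in 79.2% (65.0 to 89.5%), TATAAA in 6.25% and TGANTCA in 8.33% (2.32 to 19.98%).

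Of the cKO Ser5P regions, 55.3% (54.0 to 56.5%) overlapped a listed region of another antibody by at least 1 bp. For cWT Ser5P regions the share was 43.3% (34.5 to 52.4%). The cKO Pol II list accounted for most of it, with 38.8% of the cKO Ser5P regions, against 14.2% of the cWT Ser5P regions. The cWT Pol II list of 394 regions went the other way, with 3.16% of the cKO and 12.6% of the cWT Ser5P regions. Away from starts, 35.6% of the cKO Ser5P regions still overlapped a cKO Pol II region, compared with 41.5% at starts. Overlap with cKO Pu.1 regions was 8.43% away from starts and 1.93% at starts. Overlap with cWT H3K27ac regions was 9.97% and 13.4%, respectively. No Ser5P region of either list overlapped regions of all 4 other antibodies.

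Read from the other lists, overlap with cKO Ser5P differed little between the 2 genotypes of an antibody. A cKO Ser5P region lay under 51.2% of cKO Pol II regions (49.8 to 52.7%) and under 48.5% of cWT Pol II regions (43.4 to 53.5%). For H3K4me3 the shares were 21.6% of the cKO and 22.8% of the cWT list. For Pu.1 they were 29.99% of 1017 cKO regions and 25% of 44 cWT regions (13.2 to 40.3%). For H3K27ac they were 14.5% (12.2 to 17.1%) of the cKO and 10.3% (9.59 to 11.0%) of the cWT list, the only pair whose intervals did not overlap. Sites called cWT-specific for Pol II thus overlapped cKO-specific Ser5P at a share whose interval included that of the cKO-specific Pol II sites.

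**Figure D3:**
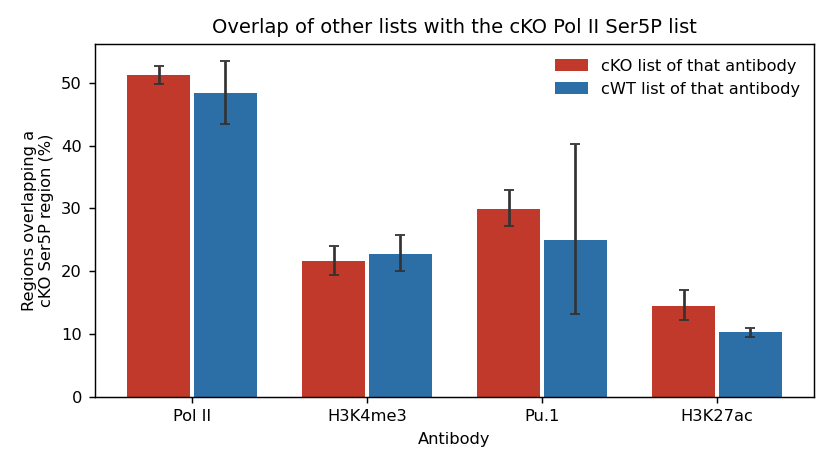
Share of the listed regions of each other antibody (vertical axis, %) that overlap a cKO Pol II Ser5P region, for the cKO list (red) and the cWT list (blue) of that antibody. Error bars are exact 95% intervals over regions; the 2 Pol II bars stand at 51.2% and 48.5%.

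Although both lists were deposited as genotype-specific, they met at some loci. Of the 127 cWT regions, 13 overlapped a cKO region, each over no more than 25.3% of the cWT region and 10.8% of the cKO region. A further set brought the number within 1 kb of a cKO region to 40 (31.5%, 23.5 to 40.3%). Of these 40, 27 (67.5%) were at starts, against 36 of the other 87 (41.4%). The 13 overlapping pairs, of which some are named here after their values were seen, included Jun, Srsf6, a splicing factor gene, Rev3l, a DNA polymerase subunit gene, and Csrnp1, an immediate early gene. These cWT regions lay on the flank of a cKO region rather than at a separate locus.

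A region was assigned to the coding gene whose start lay nearest its midpoint, within 100 kb. Of 21887 coding genes, 4443 had a cKO Ser5P region, a background of 20.3%. A cWT region was assigned to 112 genes, a background of 0.512%. Both lists named 59 genes, which is 52.7% of the cWT genes and 1.33% of the cKO genes. Among the 7570 genes with a listed region of any other antibody, 44.9% had a cKO Ser5P region. The genes with a region were long in both lists, with a median of 26.2 kb for cKO and 31.3 kb for cWT, against 17.2 kb for all coding genes. Of the 4443 genes, 3446 had 1 region and 716 had 2. The gene lists below were chosen with earlier results of these data known, and their counts were not tested.

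**Figure D4:**
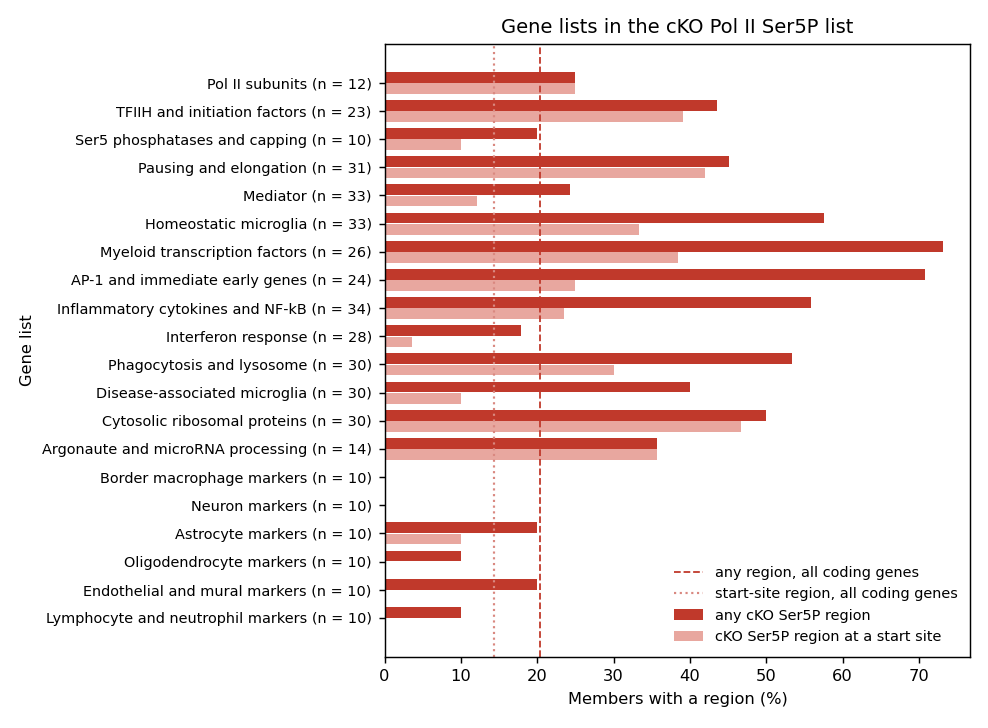
Share of the members of each of 20 gene lists (horizontal axis, %) that had any cKO Ser5P region (dark bars) or a cKO Ser5P region within 2 kb of a start site (pale bars), with the number of members n. Vertical lines give the shares over all coding genes, 20.3% for any region (dashed) and 14.3% for a region at a start (dotted).

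Genes for TFIIH and other initiation factors had cKO Ser5P regions in 10 of 23 cases (43.5%), and 9 of these had one at the start. The shares over all coding genes were 20.3% and 14.3%, and 44.9% for any region among genes with another antibody's region. Cdk7, the Ser5 kinase printed above, had 1 region with its midpoint 133 bp downstream of the start (signal 11.9, deposited p 0.762), which overlapped a cKO Pol II region. Gtf2e1, a TFIIE subunit, had 1 at 92 bp (signal 19.1). Taf13, a TFIID subunit, had 1 at 99 bp (signal 15.7), with a deposited p of 0.0242. No cWT region was assigned to the 23 genes, where the background for cWT regions is 0.512%.

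Pausing and elongation factors had cKO regions in 14 of 31 cases (45.2%), 13 of them at the start. Against all coding genes the backgrounds were 20.3% and 14.3%, and against genes with another antibody's region 44.9% for any region. Cdk9 had 3 cKO regions, at 287, -226 and -737 bp from the start, with signals of 5.13, 10.2 and 6.75. The piece at -226 bp also overlapped a cKO Pol II region. Ell2, an elongation factor, had 2 touching regions at 158 and 879 bp with the same signal of 17.0. Ctr9, a PAF1 complex subunit, had 2 touching regions with a signal of 16.6, beside a gene end. Among 12 Pol II subunit genes, Polr2h, Polr2i and Polr2d had 1 region each, all at starts, a share of 25% near the background.

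Mediator, the complex that links enhancers to polymerase, had 8 of 33 members with a cKO region (24.2%, near the background of 20.3%) and 4 with one at the start (12.1%, against 14.3%). Cdk19, a kinase of its kinase module, had a region of signal 18.6 and deposited p 0.0361 beside a gene end, and a further one of signal 14.5. Med13l had 3 regions, none at a start. Of 14 Argonaute and microRNA-processing genes, 5 (35.7%, against 20.3%) had cKO regions, all with one at the start (against 14.3%). Among the 10 members with another antibody's region, 4 had a cKO region, where the share over all such genes was 44.9%. Dgcr8, the partner of Drosha in microRNA processing, had 2 touching regions at -57 and -394 bp with a signal of 14.8. Prkra, a Dicer cofactor, had 1 at -157 bp with a signal of 19.5.

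Of 30 cytosolic ribosomal protein genes, 15 (50%) had a cKO region and 14 (46.7%) had one at the start. The shares over all coding genes were 20.3% and 14.3%. Rpl5 had a region at 176 bp with a signal of 17.4. Rpl11 had one at 306 bp with a signal of 14.99 and another at -15720 bp with a signal of 8.39.

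Homeostatic microglia genes, which serve as markers of the sorted cells, had cKO regions in 19 of 33 cases (57.6%). In 11 cases (33.3%) one was at the start. The shares over all coding genes were 20.3% and 14.3%. All 19 were among the 31 members with another antibody's region, and over all such genes the share was 44.9%. Bin1, which encodes a membrane-bending adaptor, had 6 cKO regions with signals between 5.09 and 13.6. Tgfbr2, the TGF-beta receptor subunit, had 6, of which 1 lay at 254 bp from the start (signal 9.67) and the others between 30040 and 88913 bp downstream. The region at 30040 bp (chr9:116145047-116145600) had the lowest deposited p of the 6, 0.0790, and overlapped a cKO Pu.1 region. Of the 6 regions at each gene, 4 at Bin1 and 5 at Tgfbr2 overlapped the gene span, and 1 at each was at a start or gene end. Across the list, 14 of the 33 members had a cKO region over their span.

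Mef2c, a transcription factor of microglia, had 4 cKO regions inside its span, none within 2 kb of a start, with signals from 7.91 to 15.4. Entpd1, which encodes the ATP-hydrolysing enzyme CD39, had 4, of which 1 was 1301 bp from a start. Mertk, a receptor for apoptotic cells, had 3 between 34596 and 48555 bp downstream, 2 of them touching pieces with a signal of 13.1. Named after their values were seen, Tmem119, the gene that drives Cre in both genotypes, had 1 region of signal 6.55 and deposited p 0.929 at a gene end. P2ry12, a purine receptor, had 1 of signal 8.35 at -2009 bp, and Cx3cr1, the fractalkine receptor, had 1 of signal 5.29 at -1869 bp. Another 2 cKO regions overlapped the span of P2ry12 but were assigned elsewhere by nearest start. The regions assigned to these 3 picked genes had signals below the cKO median of 11.0. Other members lay on both sides of it, for example Siglech (highest signal 13.9) and Csf1r (9.38).

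Markers of other brain cells were mostly without Ser5P regions. Of 10 neuron markers and 10 border macrophage markers, 0 had a region in either list by nearest start. By overlap with the gene span, 1 of the border macrophage markers, Mrc1, had a cKO region. The share over all coding genes by that rule was 18.3%. Oligodendrocyte markers had 1 of 10 (Mbp), lymphocyte and neutrophil markers 1 of 10 (Ms4a1), and endothelial and mural markers 2 of 10 (Cldn5 and Pdgfrb). Astrocyte markers had 2 of 10: Slc1a2 with 1 region, and Slc1a3, a glutamate transporter, with 6 regions of signal 5.09 to 9.78. These shares were at or below the background of 20.3%, and the part of other cell types in the results was not tested.

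Myeloid transcription factors had cKO regions in 19 of 26 cases (73.1%), the highest share among the 20 lists. Of the 19, 3 also had a cWT region, where the background is 0.512%. For cKO regions the background was 20.3%, and 44.9% among genes with another antibody's region, which all 26 members had. With a limit of 10 kb the count was 13 of 26, and AP-1 and immediate early genes then had the higher one, 14 of 24. Spi1, which encodes Pu.1, had cKO regions at chr2:91084333-91084715 (signal 8.10) and chr2:91096777-91097164 (signal 10.7), and a cWT region at chr2:91111854-91112163 (signal 6.22). Deposited p-values were 0.551, 0.312 and 0.943. RefSeq's promoter table had no entry for Spi1, so the distances, 2150, 14596 and -3751 bp, are from the nearer gene end. All 3 Spi1 regions lay inside the gene and apart from each other.

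Runx1, a haematopoietic factor, had a cKO region at 387 bp (signal 11.9) and one at -41506 bp (signal 13.5), and a cWT region at 21699 bp (signal 8.08). Klf6 had cKO regions only far from its start, at -58252 bp (signal 15.8) and 27189 bp (signal 15.3). Its cWT region, at 77 bp (signal 9.15), covered part of the promoter printed above. Cebpb, a C/EBP factor, had 4 cKO regions, of which 2 lay at 2081 and 3263 bp and 2 beyond 60 kb. Nfe2l2, the regulator of oxidative stress genes, had 4, none at the start, and Bach1, a repressor of the same genes, had 4 with 1 at 1137 bp.

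AP-1 and immediate early genes, which respond within minutes to stimulation, had cKO regions in 17 of 24 cases (70.8%). Only 6 (25%) had one at the start. Over all coding genes the shares were 20.3% and 14.3%, and 44.9% for any region among genes with another antibody's region. By overlap with the gene span the count was 6 of 24 rather than 17. Fos, an AP-1 subunit, had 4 cKO regions at -37548, -5048, 4094 and 59556 bp, with signals of 10.8, 6.05, 5.49 and 15.6. Jdp2, an AP-1 repressor, had cKO regions at -57736 bp (signal 11.6) and 12616 bp (signal 5.37). Batf3, an AP-1 factor of dendritic cells, had 4, with 1 at -102 bp (signal 6.30), and all 4 overlapped cKO Pol II regions. Ier3 and Ier5 had 3 each, none at the start. Ser5P regions assigned to this group were therefore mostly outside the short genes themselves.

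Jun had the longest overlap in bp among the 13 pairs of cWT and cKO regions. The widest of the 6163 cKO regions, chr4:95049493-95051658 (2166 bp, signal 10.6, deposited p 0.0888), had its midpoint 1647 bp downstream of the start. A cWT region at chr4:95051771-95052677 (907 bp, signal 11.2, deposited p 0.0291) had its midpoint at -2 bp and covered the whole Jun promoter printed above. A further cWT region, chr4:95048896-95049661, overlapped the distal end of the cKO region by 169 bp. At Jun the start was thus under a cWT region. Downstream lay the cKO region and the further cWT region, which shared only 169 bp, or 7.80% of the cKO region. Btg2, an antiproliferative early gene, had a cWT region at 1490 bp (signal 3.88) and 4 cKO regions at -4324, 3036, 11668 and 13689 bp. Hspa1a, an inducible chaperone, was the only member of the list with a cWT region (861 bp wide, at 75 bp from the start, signal 7.2) and no cKO region; reads shared with its near-identical neighbour Hspa1b could not be told apart.

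**Figure D5:**
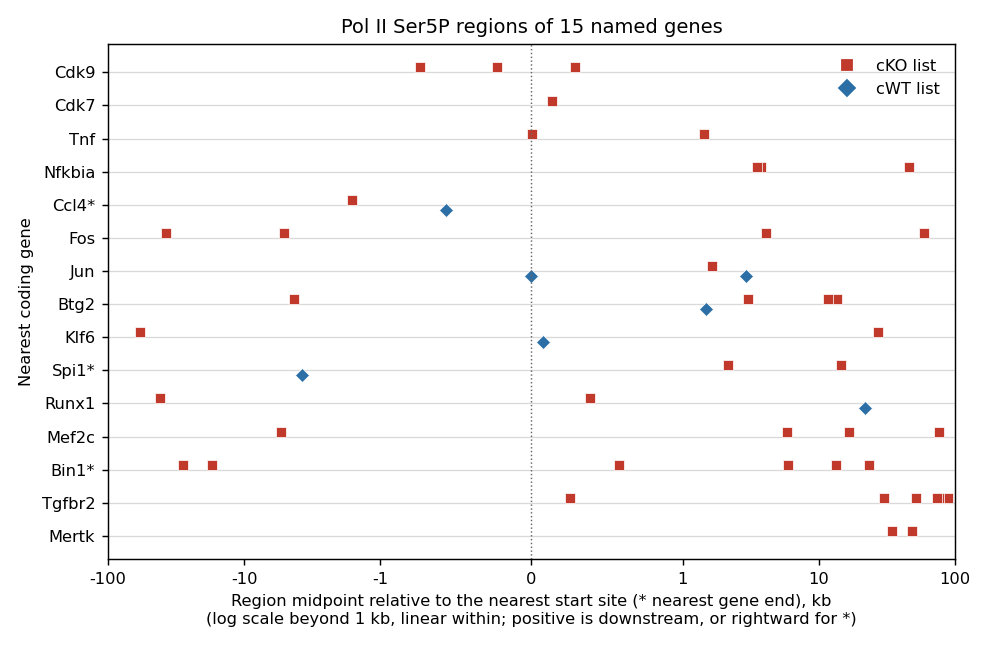
Position of each Ser5P region assigned to 15 named genes (rows) relative to the nearest start site, or to the nearest gene end for genes marked with an asterisk (horizontal axis, kb, linear within 1 kb and logarithmic beyond). Red squares are cKO regions and blue diamonds are cWT regions; at Jun and Klf6 a diamond sits within 100 bp of 0 and no square within 1 kb of it.

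Inflammatory cytokine and NF-kB genes had cKO regions in 19 of 34 cases (55.9%) and at the start in 8 (23.5%). Over all coding genes the shares were 20.3% and 14.3%, and 44.9% for any region among genes with another antibody's region. With a limit of 10 kb in place of 100 kb the count was 12. Nfkbia, the NF-kB inhibitor, had 3 cKO regions, a primary one at 45705 bp (809 bp wide, signal 16.6, deposited p 0.0637) and 2 touching ones at 3517 and 3787 bp (signal 6.96). Tnfaip3, which ends NF-kB signalling, had 3 at 9679, -18211 and -89495 bp. Socs3, an inhibitor of cytokine receptors, had 3 between 5772 and 22417 bp, and Il1b, which encodes the cytokine IL-1 beta, had 2 upstream, at -2522 and -9535 bp. Il10ra, the IL-10 receptor subunit, had 4. These regions lay mostly away from starts.

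Tnf, named after its values were seen, was an exception, with cKO regions at 5 bp (signal 5.46, deposited p 0.927) and 1436 bp (signal 11.0). The first covered the whole promoter window printed above and overlapped a cKO Pol II region. Nlrp3, the inflammasome sensor, named in the same way, also had 2 at starts, with signals of 8.02 and 8.67, and both overlapped cKO Pu.1 regions. Ccl4, a chemokine, was the only member of the list with a cWT region (signal 4.75), at chr11:83663930-83664308. The cKO region assigned to Ccl4, chr11:83646750-83647292 (signal 7.12), lay beyond the other end of the gene and was not within 1 kb of the cWT region. It was assigned by a gene end of Ccl4, and lay nearer the span of Ccl3 (chr11:83647843-83649378), a list member with no assigned region.

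Of 28 interferon response genes, 5 (17.9%) had a cKO region, against the background of 20.3%, and 1 (3.57%) had one at the start, against 14.3%. The count was 3 with a limit of 10 kb and 1 by gene span. The gene with a start region was Ifnar2, a subunit of the type I interferon receptor, with 3 regions, 1 of them at 129 bp (signal 11.8). Phagocytosis and lysosome genes had 16 of 30 (53.3%) and disease-associated microglia genes 12 of 30 (40%), against the same 20.3%. Among genes with another antibody's region the background was 44.9%. In the first group, Tfeb, the regulator of lysosome genes, had 3 cKO regions, 1 at 140 bp (signal 10.5), and Ctsz, a cathepsin, had 3 with 2 touching pieces over the start (signal 6.43). In the disease-associated group only 3 of 30 (10%, against 14.3%) had a region at the start, and the count by a limit of 10 kb was 5. Cd52, a surface glycoprotein, was the only member of that group with 2 regions.

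Most of the genes with the most cKO regions were long, and some had regions only or mainly outside the gene. Plcl2, a phospholipase-like signalling gene, had 7, of which 5 were inside the gene. Eed, a subunit of the Polycomb complex PRC2, had 7, of which 1 was at the start (281 bp, 1080 bp wide, signal 11.5) and the others lay between -39008 and -73977 bp. Ccny, a cyclin gene, had 7, all outside its span. Chd2 and Chd7, both chromatin remodellers, Bcor, a transcriptional corepressor, Bin1, Sh3pxd2a and Sipa1l2 had 6 each. In all 11 genes had 6 regions, and those named are the ones whose strongest region had the highest signal. Gm52481, a predicted gene on chromosome Y, had 9 cKO and 3 cWT regions assigned, none inside its span of 2355 bp, and reads from near-identical copies could not be told apart there.

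Besides Jun and Gm52481, B4galt5 and Ccl28 had 2 cWT regions each. B4galt5, a galactosyltransferase gene, had cWT regions at -259 bp (signal 11.3) and 30252 bp (signal 10.3), and a cKO region between them at 13762 bp (signal 8.88). Ccl28, a chemokine gene, had cWT regions at -26889 and -21761 bp (signals 8.88 and 8.50) and no cKO region. At B4galt5 1 cWT region was at the start and the cKO region was not.

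The regions of highest signal were not at the genes above. In the cKO list the highest was chr17:13305880-13306338 (signal 55.9, deposited adjusted p 0.00386), at -48463 bp from the start of Tcp10c, which also overlapped a cWT H3K27ac region. The next were chrX:129056392-129056840 (29.1), chr12:113335303-113335843 in the immunoglobulin heavy chain locus (27.3), chr6:4761499-4762225 at the imprinted gene Peg10 (27.1) and chr2:73686578-73686892 in Chn1 (26.0). In the cWT list the highest was chr9:123461794-123462240 (43.8, deposited adjusted p 0.0265), inside Lars2, a mitochondrial tRNA synthetase gene, which also overlapped cWT H3K27ac and cWT Pu.1 regions. The next were chr9:24541865-24542340 (37.6), chr2:3050026-3050616 (33.8), chr1:183299138-183299579 within Aida (28.0) and chr3:142191588-142191910 (27.3). Of these 10 regions, 2 were at a coding start or gene end, Peg10 and the Aida region, which lay at -2065 bp from Brox.

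No Ser5P region lay near Mir137 itself (chr3:118433857-118433929). The nearest cKO region was 1349 kb away and the nearest cWT region 2426 kb away. Since the lists hold only genotype-specific regions, this says nothing of Ser5P present in both genotypes.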

How the data were processed

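Genotype-specific region lists were used as deposited, 1 per antibody and genotype, with no values per replicate. Per the submitters' processing notes, HOMER 4.11, bedtools 2.30.0, MACS2 2.2.7.1 and Bowtie2 2.4.4 were used with GRCm38 or mm10; the way replicates were pooled and regions selected is not given in the sources. The deposited score equals 125 times -log2 of the p-value, capped at 1000, within 1. The deposited signal and p-value are the authors' values per region and were used to rank or filter; alternatives that rank or filter both Ser5P lists together by p assume that it means the same in each.

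Positions are on mm10, counted from 1; genes and promoters came from RefSeq tables for GRCm38.p6. A region was at a start if it came within 2 kb of one. Intervals are exact Clopper-Pearson. Python 3.11.15 was used with numpy 2.4.6, pandas 2.3.3, scipy 1.17.1 and matplotlib 3.10.9 for figures; the interval functions were tested on simulated data. Alternatives changed windows, widths, overlap rules and assignment.

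Members and gene lists were chosen with earlier results of these data known. Named genes were Mir137, Spi1 and Jdp2, the 10 genes with the most cKO regions, genes with at least 2 cWT regions, the 5 highest signals per list, regions with adjusted p under 0.05, up to 5 members per gene list by cKO regions, and list members with a cWT region. Others were chosen after their values were seen. No test across genes was run, and the members of 1 gene list are not reported here.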

Additional observations from a re-analysis of the deposited data

How the results depend on the processing

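Of the 28 alternatives to the 6 described values, 8 stayed within the exact interval of the value reported and 20 moved outside it. The cKO share of 98.0% became 89.7% with p under 0.05, 98.6% for the lower 50% of p-values, 98.3% in base pairs, 98.5% at 300 bp or wider and 98.6% without cWT regions within 1 kb of a cKO region. The cKO start share of 54.6% became 51.5% at 1 kb, 59.5% at 5 kb, 61.2% with all genes, 56.2% at 300 bp or wider, 62.2% for the lower 50% of p-values and 45.2% with promoter entries only, and the cWT share of 49.6% became 39.4% at 1 kb. The median cKO width of 369 bp became 384 bp after merging and 400 bp for the lower 50% of p-values. The overlap share of 55.3% became 48.7% when 50% of the region had to be covered and 60.3% within 1 kb. The share of genes of 20.3% became 16.6% within 10 kb, 18.3% by gene span, 11.9% for the lower 50% of p-values and 44.9% among genes with another antibody's region. Of 20 gene list counts, 6 moved by over 1.5 times within 10 kb and 8 by gene span. The alternatives by promoter entry, by closeness to a cKO region, by 1 Mb windows and by other antibodies' genes were added after seeing the data. No paired analysis was possible because the lists carry no values per replicate, and no replicate could be left out for the same reason. Depth is unknown, so what it limits could not be assessed.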

Other observations

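The following cWT Ser5P regions were picked after their values were seen and stand for no group. Gadd45a, a DNA damage response gene, had one at 141 bp from its start (signal 9.61), Gdf15, which encodes a cytokine, at 1878 bp (signal 11.4), and Csrnp1 at 1216 bp (signal 4.52). Those at Gadd45a and Csrnp1 lay within 1 kb of a cKO region, and that at Gdf15 did not.

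Some of the Ser5P regions of lowest deposited p lay in the first 3.2 Mb of a chromosome. In those stretches 18 cKO regions and 1 cWT region were found. They made up 3 of 78 cKO and 1 of 9 cWT regions with a deposited p under 0.05. In the cKO list they include chr9:3017813-3018106 (deposited p 0.000520) and chr4:3065582-3065980 (deposited p 0.000882), and in the cWT list chr2:3050026-3050616. Chromosome Y held 12 cKO and 3 cWT regions, and mitochondrial DNA 1 cKO region.

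The cKO regions with a deposited p under 0.05 included several at the starts of genes named here after their values were seen: Homer1, a synaptic scaffold gene, at 123 bp (signal 21.9), Tardbp, which encodes the RNA-binding protein TDP-43, at 279 bp (signal 13.2), Birc3, a regulator of NF-kB signalling, at 234 bp (signal 13.5), and Atp6v1h, a subunit of the lysosomal proton pump, at 283 bp from a gene end that stands in for the start (signal 16.9). A region near Was, a regulator of actin in blood cells, lay at -6107 bp (signal 22.7) and overlapped a cKO H3K4me3 region.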
